A study of Mus musculus with 3 samples.

Results

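The genes of the insulin-like growth factor axis were compared between mesenchymal and epithelial cells of the mouse ovarian surface epithelium, the single layer of cells that covers the ovary. The set held the growth factors Igf1 and Igf2, the receptors Igf1r and Igf2r, and the binding proteins Igfbp2 to Igfbp7, 10 genes chosen by name. They were chosen with earlier results of these data known. Probes were taken by current symbol or older name from the array annotation, whatever their values. This gave 12 probes for 8 of the 10 genes, out of 20371 probes and 10038 named genes on the array. Igfbp6 and Igfbp7 had no probe under these names and were not analysed here.

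The insulin-like growth factors are secreted peptides that act through the type 1 receptor, a tyrosine kinase that signals through insulin receptor substrates, PI3 kinase and AKT to drive growth and survival. The type 2 receptor has no kinase; it binds Igf2 at the cell surface, carries it to lysosomes for degradation, and also sorts mannose 6-phosphate-tagged enzymes. The binding proteins hold the ligands outside the cell, and proteases that cut them set the ligands free. In the ovary this axis is known for its part in follicle growth, and Igf2 is an imprinted gene that is high in the fetus and re-expressed in many tumours.

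The mesenchymal group was ovarian surface epithelium held for 1 week in 15% fetal bovine serum, and the epithelial group was kept in 2.5% serum. Both came from the same 3 separate cultures, grown from the ovaries of superovulated and mated C57/Bl6 females, and cells were collected at 80% confluence. How many animals made up a culture was not given in the sources used here. Amplified RNA of both groups, from 4 µg of total RNA per labelling, was hybridised together on 2-colour Agilent arrays, 2 arrays per culture with the dyes exchanged. The change of serum and the change of phenotype went together, so their effects cannot be told apart, and in bulk RNA a smaller share of cells that express a gene cannot be told apart from less RNA per cell.

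The ratio of mesenchymal over epithelial RNA was taken on the log2 scale and averaged over the 2 arrays of a culture, and means carry the SD of the cultures (n = 3, or as stated). Intensities are in arbitrary units after normalisation. They are compared between the RNAs of 1 probe and not between probes. A probe was called when limma's Benjamini-Hochberg adjusted p over all 20185 tested probes was under 0.05.

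The precision is limited by the number of arrays. The log2 ratios of cultures 2 and 3 correlated over probes at r = 0.88, and those of culture 1 with the other two at 0.59 and 0.63. For the ratios of single arrays, r was 0.81 to 0.93 within a dye orientation and -0.53 to -0.14 between opposite orientations. Over all probes the SD of the dye effect was 0.48 and that of the mean log2 ratio 0.31. On 1 of the 6 arrays, culture 3 with mesenchymal RNA in Cy3, 1639 probes were marked as outliers by the scanner software, against 61 to 467 on the others. Of 8 measured markers of ovarian surface epithelium, 7 fell in mesenchymal cells, Krt7, Krt8, Krt19, Msln, Wt1, Gpm6a and Bnc1. The summed intensity of the 8 was 146926 to 175707 in mesenchymal cells against 303824 to 345516 in epithelial cells. These sums are limited by saturation. The epithelial spot was saturated on 6 arrays for Krt7, 3 for Krt8 and 2 for Krt19, and the mesenchymal spot on 3 for Krt8. Of 4 markers of stromal fibroblasts 2 fell, of 7 granulosa markers 1 fell and 6 were not called, of 5 oocyte markers 1 rose, and none of 5 theca, 3 endothelial and 3 macrophage markers was called. The part of these shifts in cell markers in the results below was not tested.

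In mesenchymal cells 1 probe of Igf2 was 9.99-fold higher, 1 probe of Igf2r was 1.5-fold higher, and Igfbp2 and Igfbp3 were 2.11-fold and 2.16-fold lower. Of the 2 probes of Igf1, 1 was lower by a smaller amount and the other was not called. The other probe of Igf2r was also lower by a smaller amount. Of the 12 probes, 6 were called, 2 higher and 4 lower, where 11.3% of all probes were called, 5.6% higher and 5.66% lower. Taking the brightest probe of each gene, 5 of 8 genes were called, 2 higher and 3 lower, against 16.5% of all named genes, 8.64% higher and 7.9% lower. Because the genes were chosen with earlier results of these data known, an excess over these shares is not a test of the axis. Without culture 1, 2 or 3 the number of called probes of the axis was 9, 4 and 3, in that order. In a fit of both RNAs without the pairing by culture it was 2. Over all probes those fits called 5875 of 18192, 1163 of 18140 and 809 of 19271, and 256 of 20185 without the pairing. The median log2 ratio of the 12 probes was -0.15, and that of all probes was -0.0032. All 12 probes were well above background for both RNAs on all 6 arrays, and none of their spots was marked as an outlier. The background measure is weak, since 26.5% to 81.5% of negative controls also passed it on an array.

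**Figure D1:**
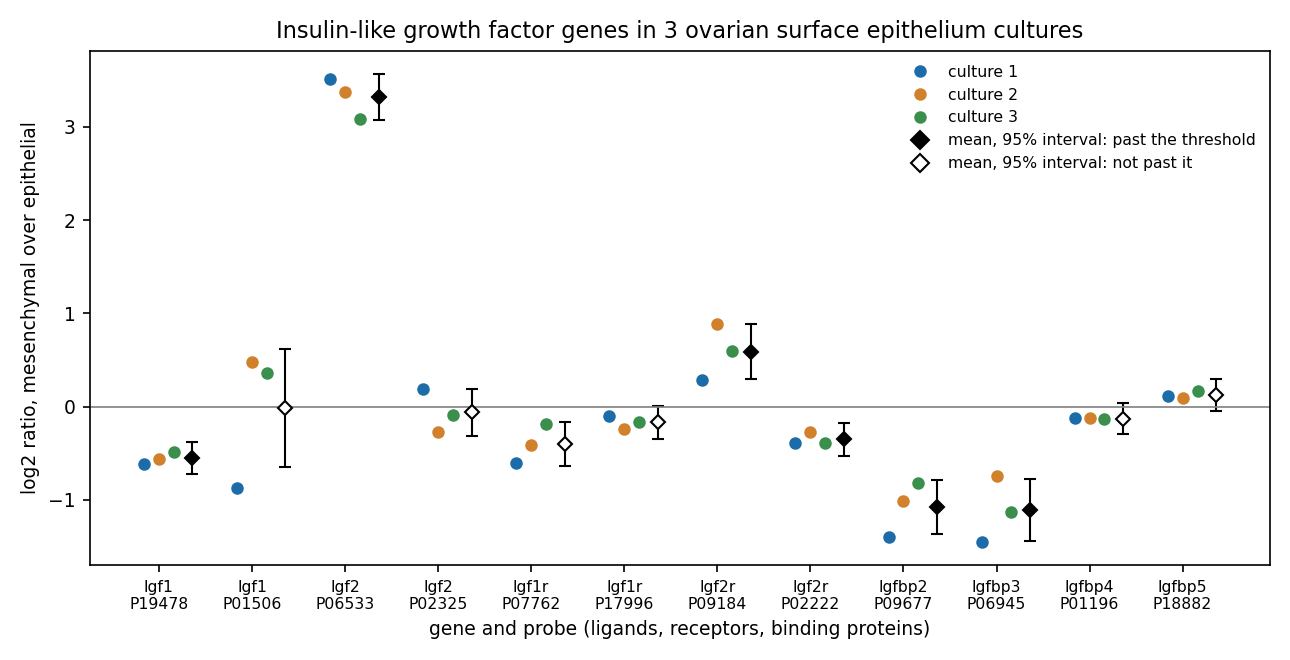
Log2 ratio of mesenchymal over epithelial RNA (y axis) for the 12 probes of the axis (x axis), with coloured points for the 3 cultures and diamonds for the mean with its 95% interval from limma, filled where the adjusted p was under 0.05. Igf2 probe P06533 lies above 3 in every culture, and Igfbp2 and Igfbp3 lie below 0 in every culture.

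Igf2 showed the largest difference of the axis, by 1 of its 2 probes. Its probe A_65_P06533 had intensities of 42602, 39316 and 35596 in mesenchymal cells of cultures 1, 2 and 3, against 3730, 3806 and 4211 in epithelial cells. The mesenchymal values were the higher in every culture, and the groups lay far apart with no overlap. The log2 ratios were 3.51, 3.37 and 3.08, with a mean of 3.32 ± 0.22 (adjusted p = 0.000116). This was a 9.99-fold rise (95% interval 8.44 to 11.8), and the ratio ranked 2 from the top among the 20185 probes. It was above 0 on all 6 arrays, with means of 3.96 over the arrays with mesenchymal RNA in Cy5 and 2.69 over those with it in Cy3.

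The other Igf2 probe, A_65_P02325, did not show this difference. Its intensities were 2320, 2360 and 1786 in mesenchymal cells, against 2042, 2860 and 1901 in epithelial cells. The groups overlapped, with culture 1 higher and cultures 2 and 3 lower in mesenchymal cells. The mean log2 ratio was -0.06 ± 0.23 (adjusted p = 0.817), with a 95% interval of -0.31 to 0.19. Within each culture the log2 ratios of the 2 probes differed by 3.33, 3.65 and 3.17, a mean of 3.38 ± 0.24. The annotation assigns both probes to the same Igf2 reference transcript, and their sequences and places in the gene were not analysed here. Which of the 2 follows the Igf2 transcript was not tested.

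**Figure D2:**
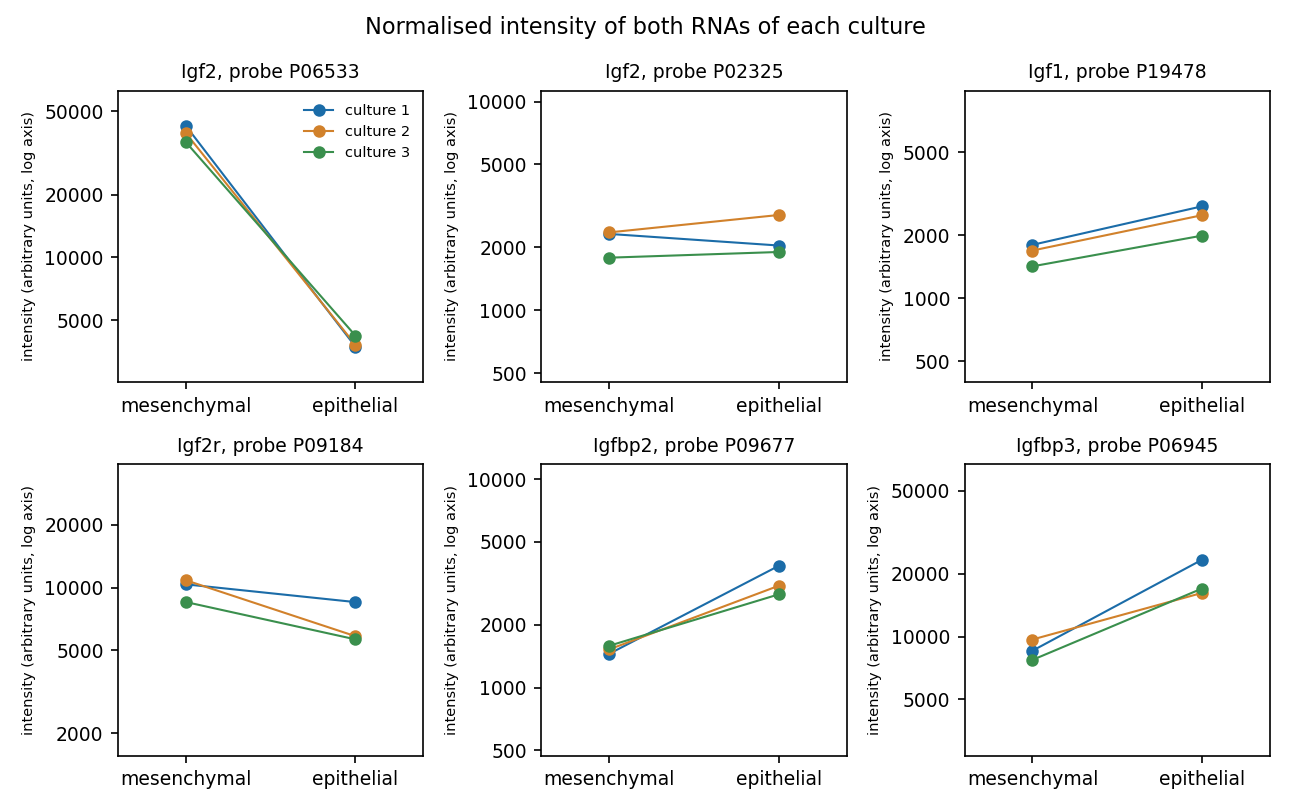
Normalised intensity (y axes, arbitrary units on a log scale that spans the same fold in each panel) of mesenchymal RNA at left and epithelial RNA at right for 6 probes of the axis, with a line for each of the 3 cultures. Igf2 probe P06533 falls steeply to the right in all cultures, and Igf2 probe P02325 differs little and not in 1 direction. Igf2r probe P09184 lies higher in mesenchymal RNA, and Igf1 probe P19478, Igfbp2 and Igfbp3 lie lower in mesenchymal RNA.

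Igf2 lies on chromosome 7 at chr7:142650768-142666816 of GRCm38.p6, on the minus strand, and RefSeq gives 4 windows of 250 bases before its annotated start sites. The array signal does not separate transcripts from these starts. Each window was searched on both strands for GGGCGG, the letters bound by Sp1, for TATAAA, for the E-box CAGGTG known to be bound by Snail and Zeb factors, for the AP-1 letters TGANTCA and for the Egr1 letters GCGGGGGCG. These were found in 32.7%, 12.4%, 17.2%, 6.75% and 2.57% of all 32851 windows of the same length, in that order, and the Sp1 and Egr1 letters can share bases. The 2 Igf2 windows farthest upstream, chr7:142666817-142667066 and chr7:142661272-142661521, held none of them. The 2 nearer ones, chr7:142658805-142659054 and chr7:142657497-142657746, held GGGCGG or its complement 1 and 2 times and had a GC content of 68.8% and 66.0%, against a median of 52.4% over all windows. Both of these lie inside the span of the gene, before annotated start sites downstream of the first. They are shown 5′ to 3′ on the minus strand because Igf2 probe A_65_P06533 had the widest difference of the axis. Capitals mark the Sp1 letters, and the 2 windows without a match are not shown.
Igf2 start 3: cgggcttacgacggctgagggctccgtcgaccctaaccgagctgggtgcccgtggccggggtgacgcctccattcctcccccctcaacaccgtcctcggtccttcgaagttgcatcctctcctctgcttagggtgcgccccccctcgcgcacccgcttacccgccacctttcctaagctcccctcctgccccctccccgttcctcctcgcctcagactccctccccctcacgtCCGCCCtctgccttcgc
Igf2 start 4: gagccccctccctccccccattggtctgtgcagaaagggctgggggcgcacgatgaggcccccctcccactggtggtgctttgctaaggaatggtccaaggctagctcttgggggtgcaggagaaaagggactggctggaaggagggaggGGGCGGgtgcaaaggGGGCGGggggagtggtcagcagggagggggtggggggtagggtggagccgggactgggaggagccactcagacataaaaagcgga
A match to these letters is a description of the sequence, and binding was not measured.

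Igf1, the ligand that circulates in the adult under growth hormone control and is also made locally, was lower by 1 probe. Probe A_65_P19478 had intensities of 1802, 1693 and 1422 in mesenchymal cells, against 2757, 2499 and 1995 in epithelial cells. Mesenchymal values were the lower in every culture, and the groups did not overlap. The log2 ratios were -0.61, -0.56 and -0.49, with a mean of -0.55 ± 0.06 (adjusted p = 0.00609), so mesenchymal cells had 0.681 of the epithelial signal (95% interval 0.604 to 0.767). The ratio was below 0 on all 6 arrays. Without culture 3 it was -0.59 with an adjusted p of 0.0577, and over the arrays with mesenchymal RNA in Cy3 alone it was -0.27 (adjusted p = 0.0668).

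Probe A_65_P01506, which the annotation also gives as Igf1, differed mainly by dye. Its intensities were 1349, 1727 and 843 in mesenchymal cells, against 2474, 1242 and 657 in epithelial cells. Culture 1 was lower and cultures 2 and 3 were higher in mesenchymal cells, and the groups overlapped. On the single arrays its log2 ratio was -3.0, -1.82 and -1.72 with mesenchymal RNA in Cy5, against 1.25, 2.77 and 2.44 with it in Cy3. The culture means averaged -0.01 ± 0.75 (adjusted p = 0.986). Without culture 1 the mean was 0.42 (adjusted p = 3.3e-06), but that fit of cultures 2 and 3 alone called 5875 of 18192 probes. Of the pair, the annotation describes A_65_P19478 as similar to exon 6 of rat Igf1 and A_65_P01506 as the mouse Igf1 mRNA.

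Neither probe of Igf1r, the type 1 receptor that both ligands activate, was called. Probe A_65_P07762 had intensities of 5347, 6044 and 5682 in mesenchymal cells, against 8163, 8049 and 6491 in epithelial cells, with no overlap between groups. Its log2 ratios were -0.61, -0.41 and -0.19, a mean of -0.41 ± 0.21 with an adjusted p of 0.0506, just outside the threshold. It was below 0 on 4 of 6 arrays, and 11 of 22 alternative settings placed it past the threshold. Among them was the fit without culture 1, with a ratio of -0.30 (adjusted p = 0.0012), which called 5875 of 18192 probes. Over the arrays with mesenchymal RNA in Cy3 alone the ratio was 0.11 (adjusted p = 0.478). This probe carries an older name that RefSeq lists for Igf1r, and 1 array's annotation describes it only by similarity to a human genomic clone.

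The second Igf1r probe, A_65_P17996, which the annotation places in the untranslated 3′ end of the gene, had log2 ratios of -0.11, -0.24 and -0.16. Its mean was -0.17 ± 0.07 (adjusted p = 0.226), with a 95% interval of -0.34 to 0.0045. Intensities were 3433, 3618 and 5830 in mesenchymal cells, against 3693, 4278 and 6520 in epithelial cells. The values of the groups overlapped across cultures, and the sign of the ratio turned with the dye. On the single arrays the log2 ratio was 0.29, 0.14 and 0.21 with mesenchymal RNA in Cy5, against -0.50, -0.63 and -0.54 with it in Cy3. Without culture 1, in the fit that called 5875 of 18192 probes, the mean was -0.20 (adjusted p = 0.0452). Over the arrays with mesenchymal RNA in Cy3 alone it was -0.55 (adjusted p = 0.011), and that fit called 6898 of 20264 probes.

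The 2 probes of Igf2r, the type 2 receptor that clears Igf2, moved in opposite directions. The annotation of probe A_65_P09184 names exon 48 and the complete coding sequence. It is called the exon probe here, though its place in the gene was not analysed. It had intensities of 10356, 10830 and 8518 in mesenchymal cells, against 8515, 5844 and 5643 in epithelial cells. Every mesenchymal value lay above every epithelial one, though the lowest of the first and the highest of the second nearly met. The log2 ratios were 0.28, 0.89 and 0.59, a mean of 0.59 ± 0.30 (adjusted p = 0.0315), a 1.5-fold rise (95% interval 1.22 to 1.85) that was above 0 on all 6 arrays.

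Probe A_65_P02222, called the intron probe here, is described in 1 array's annotation as similar to intron 2 of Igf2r. It had a mean log2 ratio of -0.35 ± 0.07 (adjusted p = 0.0299). Intron 2 of mouse Igf2r is known to hold the start of Airn, a noncoding RNA transcribed from the opposite strand, and the strand of this probe was not analysed here. Intensities were 2229, 2238 and 1097 in mesenchymal cells, against 2925, 2700 and 1439 in epithelial cells. Each culture was lower in mesenchymal cells, with log2 ratios of -0.39, -0.27 and -0.39, while the ranges of the groups overlapped. The log2 ratios of the exon and the intron probe differed by 0.67, 1.16 and 0.99 within the cultures, a mean of 0.94 ± 0.25.

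Both Igf2r calls were near the threshold. Without culture 2 the adjusted p was 0.108 for each, with log2 ratios of 0.44 for the exon probe and -0.39 for the intron probe. Without culture 3 the values were 0.59 (adjusted p = 0.166) and -0.33 (adjusted p = 0.244). Without only the array of culture 3 that had the most outlier marks, an alternative chosen after seeing the data, they were 0.57 (adjusted p = 0.0673) and -0.27 (adjusted p = 0.113). By dye, the exon probe gave 0.26 (adjusted p = 0.0605) over the arrays with mesenchymal RNA in Cy5, and the intron probe -0.14 (adjusted p = 0.374) over those with it in Cy3.

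Igfbp2, a binding protein with a high affinity for Igf2, fell in mesenchymal cells. Its only probe, A_65_P09677, had intensities of 1453, 1525 and 1587 in mesenchymal cells, against 3834, 3078 and 2800 in epithelial cells. All mesenchymal values lay below all epithelial values, and the mesenchymal ones were the closer together. The log2 ratios were -1.40, -1.01 and -0.82, a mean of -1.08 ± 0.30 (adjusted p = 0.00385). The signal was 2.11-fold lower, 0.474 of the epithelial one (95% interval 0.387 to 0.580). The ratio was below 0 on all 6 arrays, its dye effect was -0.07, and the call held in all 22 alternative settings.

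Igfbp3, the main carrier of both ligands in the circulation, also fell. Probe A_65_P06945 had intensities of 8556, 9683 and 7732 in mesenchymal cells, against 23342, 16189 and 16989 in epithelial cells. The groups did not overlap, and culture 1 had the highest epithelial value. The log2 ratios were -1.45, -0.74 and -1.14, a mean of -1.11 ± 0.35 (adjusted p = 0.00533), a 2.16-fold lower signal (0.464 of the epithelial one, 95% interval 0.369 to 0.584).

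This Igfbp3 mean joins single arrays that differed by dye. With mesenchymal RNA in Cy5 the log2 ratios were -2.44, -2.21 and -2.59, and with it in Cy3 they were -0.46, 0.73 and 0.32. The mean over the arrays with mesenchymal RNA in Cy3 alone was 0.19 (adjusted p = 0.532), so the direction held in only 1 of the dye orientations. The description on 1 array names only a genomic clone of chromosome 11 for this probe, while the others name Igfbp3.

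A window before a start of each gene is shown for the lowered binding proteins. RefSeq gives 2 windows for Igfbp2. The upstream one, chr1:72824230-72824479 on the plus strand, had the Sp1 letters 3 times, in capitals, and a GC content of 67.2%. The other, chr1:72825137-72825386, lies inside the gene, had the AP-1 letters 1 time, no Sp1 letters and a GC content of 56.4%, and is not shown. The Igfbp3 window, chr11:7213924-7214173 on the minus strand, also lies inside the span of its gene. It had 1 E-box CAGGTG, in capitals, and a GC content of 73.2%. All windows are from RefSeq on GRCm38.p6.
Igfbp2: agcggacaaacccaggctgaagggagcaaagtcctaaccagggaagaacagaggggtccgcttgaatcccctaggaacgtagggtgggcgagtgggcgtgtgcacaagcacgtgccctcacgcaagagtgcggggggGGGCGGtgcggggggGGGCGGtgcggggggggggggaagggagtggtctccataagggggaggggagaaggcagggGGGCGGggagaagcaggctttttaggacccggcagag
Igfbp3: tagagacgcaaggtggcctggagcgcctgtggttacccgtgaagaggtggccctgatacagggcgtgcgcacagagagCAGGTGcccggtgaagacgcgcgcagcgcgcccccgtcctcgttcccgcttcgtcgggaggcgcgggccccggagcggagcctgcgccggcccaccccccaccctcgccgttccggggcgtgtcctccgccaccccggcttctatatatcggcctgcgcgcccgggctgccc
None of the other searched letters was found in the 2 windows shown.

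Igfbp4 and Igfbp5, binding proteins that are known to be cut by pappalysins, were not called. Igfbp4 probe A_65_P01196 had intensities of 61865, 57555 and 59039 in mesenchymal cells, against 67577, 62887 and 64815 in epithelial cells. The epithelial spot was saturated on all 6 arrays and the mesenchymal spot on 2, so the log2 ratio of -0.13 (adjusted p = 0.337; 95% interval -0.29 to 0.03) is limited by saturation, and no fold is given. Igfbp5 probe A_65_P18882 had intensities of 1401, 2054 and 1521 in mesenchymal cells, against 1293, 1932 and 1354 in epithelial cells. The groups overlapped, and the log2 ratios of 0.12, 0.09 and 0.17 averaged 0.12 ± 0.04 (adjusted p = 0.372; 95% interval -0.04 to 0.29). With 3 cultures an exact two-sided sign-flip test of a single probe cannot go below p = 0.25, which is why only the fit over all probes was used for calls.

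Dye effects were common among these probes. On the unturned ratios, 8 of the 12 probes showed a difference between Cy5 and Cy3, 2 higher and 6 lower in Cy5, where 57.7% of all probes did, 26.9% higher and 30.8% lower in Cy5. The Igf1 probe A_65_P01506 had the widest, at -2.17, followed by Igfbp3 at -1.30 and Igf2 probe A_65_P06533 at 0.63. Igf2 probe A_65_P06533, Igf1 probe A_65_P19478, Igf2r probe A_65_P09184 and Igfbp2 had the same sign on all 6 arrays, and the other probes did not.

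**Figure D3:**
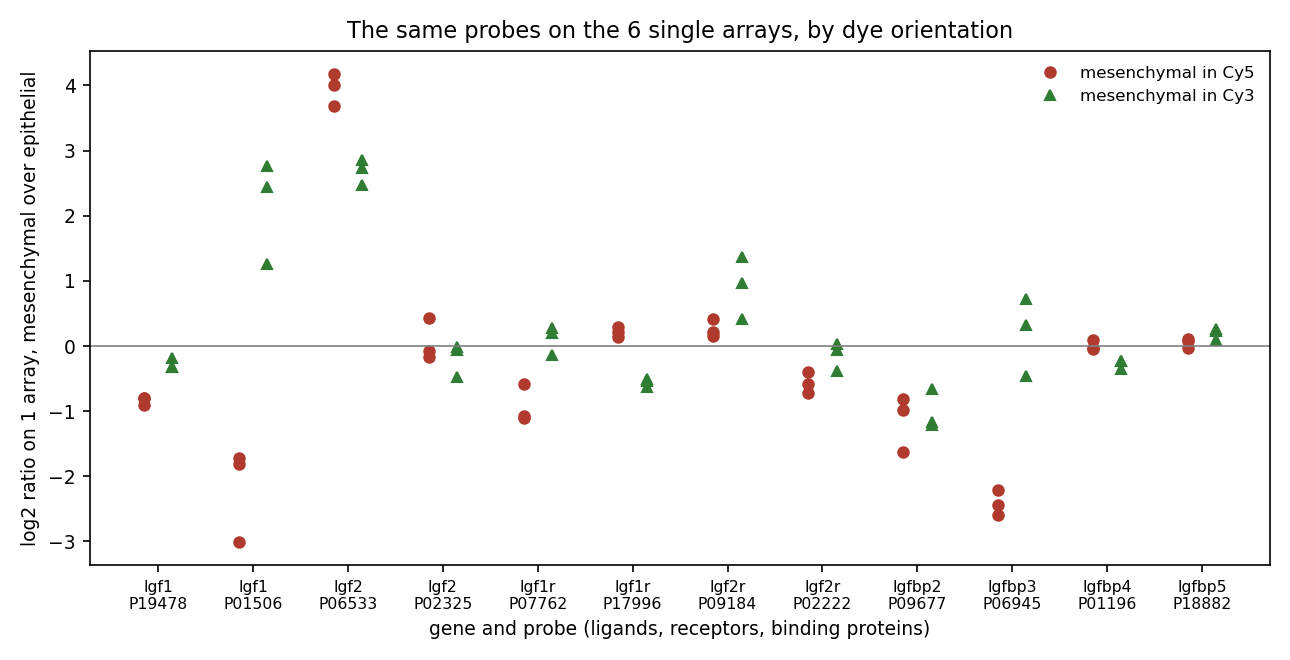
Log2 ratio of mesenchymal over epithelial RNA on each of the 6 single arrays (y axis) for the same 12 probes (x axis), with circles for the 3 arrays with mesenchymal RNA in Cy5 and triangles for the 3 with it in Cy3. For Igf1 probe P01506 and for Igfbp3 the circles lie far below the triangles, whereas for Igf2 probe P06533 all 6 points lie above 2.

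Around the members, 60 genes of 7 pathway lists were measured, with the brightest probe taken for each gene. Of these, 9 were higher and 5 lower in mesenchymal cells, or 23.3% called, against the 16.5% of all named genes called on their brightest probe. The lists were also chosen with earlier results of these data known, so this difference in shares is not a test. The median log2 ratio of the 60 was 0.00092, against -0.0032 for all probes. Without culture 1 the calls numbered 26, without culture 3 they numbered 6, and without the pairing by culture 4. Over all probes the same fits called 5875 of 18192, 809 of 19271 and 256 of 20185, in that order.

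Among proteases, carriers and other binding proteins, 1 of 4 measured genes was called. Pappa2, a protease that cuts Igfbp5 and Igfbp3, had intensities of 44018, 31353 and 38063 in mesenchymal cells, against 18709, 14596 and 18553 in epithelial cells. The groups did not overlap, and the log2 ratio was 1.12 ± 0.10 (adjusted p = 0.000734), a 2.18-fold rise seen on all 6 arrays. Adam9, Adamts1 and Igfbpl1 were not called.

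Among the insulin receptor family and adaptors, 3 of 11 rose and 2 fell. Irs1, the docking protein that links the type 1 receptor to PI3 kinase, had intensities of 11287, 12099 and 11824 in mesenchymal cells, against 6231, 6208 and 6310 in epithelial cells. Its log2 ratio was 0.91 ± 0.05 (adjusted p = 0.00117). Its other, dimmer probe had 0.02 ± 0.13 (adjusted p = 0.911).

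Socs3, an inducible inhibitor of cytokine and insulin signalling, rose by 0.74 ± 0.21 (adjusted p = 0.00658). Grb10, an imprinted adaptor that restrains signalling by the insulin and type 1 receptors, fell by 0.83 ± 0.32 (adjusted p = 0.011). Sos1, the exchange factor that activates Ras, fell by 0.59 ± 0.10 (adjusted p = 0.00615) on its brightest probe. The 2 other Sos1 probes had 0.03 ± 0.11 (adjusted p = 0.878) and, over 2 cultures, -0.11 ± 0.14 (adjusted p = 0.624), so the Irs1 and Sos1 calls each rest on 1 of their probes. Without culture 3 the adjusted p was 0.0584 for Socs3 (log2 ratio 0.74) and 0.0789 for Grb10 (-0.82). Over the arrays with mesenchymal RNA in Cy5 alone, the log2 ratio was 0.19 for Socs3 (adjusted p = 0.169) and -0.48 for Grb10 (adjusted p = 0.0764), and over those with it in Cy3 that of Sos1 was -0.14 (adjusted p = 0.259).

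Among PI3 kinase, AKT and mTOR genes, 2 of 21 rose, 2 fell and 17 were not called, Mtor and the 3 Akt genes among them. Pik3cb, a catalytic subunit of PI3 kinase, had intensities of 2721, 2351 and 1230 in mesenchymal cells, against 9203, 5681 and 3106 in epithelial cells. Its log2 ratio was -1.46 ± 0.26 (adjusted p = 0.00114), a 2.74-fold lower signal. The groups did not overlap, and the ratio was below 0 on all 6 arrays.

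Eif4ebp1, the repressor of translation that mTOR inactivates, fell by 1.16 ± 0.19 (adjusted p = 0.00128), with the epithelial spot saturated on 3 arrays. The regulatory subunits Pik3r3 and Pik3r1 rose by 0.39 ± 0.05 (adjusted p = 0.02) and 0.32 ± 0.03 (adjusted p = 0.0357). The 2 dimmer probes of Pik3r1 gave 0.60 ± 0.12 (adjusted p = 0.00661) and 0.25 ± 0.20 (adjusted p = 0.177). Without culture 2 the adjusted p was 0.092 for Pik3r3 (log2 ratio 0.42) and 0.188 for Pik3r1 (0.32), and without culture 3 it was 0.169 (0.39) and 0.241 (0.33). Pik3r3 was above 0 on 4 of 6 arrays, with a log2 ratio of 0.03 (adjusted p = 0.797) over the arrays with mesenchymal RNA in Cy3.

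Among FOXO factors and their targets, which AKT holds in check, 1 of 11 rose, 1 fell and 9 were not called, with Foxo1 and Foxo3 among them. Ccng2, a cyclin of growth arrest, rose by 0.44 ± 0.05 (adjusted p = 0.0123). Sesn3, a stress-induced inhibitor of mTOR signalling, fell by 0.49 ± 0.19 (adjusted p = 0.0232), with 2 arrays above 0 and 4 below and a dye effect of -0.75. Without culture 3 the adjusted p was 0.108 for Ccng2 (log2 ratio 0.46) and 0.126 for Sesn3 (-0.52), and without culture 2 that of Ccng2 was 0.0894 (0.42). Over the arrays with mesenchymal RNA in Cy5 alone Ccng2 had 0.22 (adjusted p = 0.0592), and over those with it in Cy3 Sesn3 had 0.26 (adjusted p = 0.225).

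**Figure D4:**
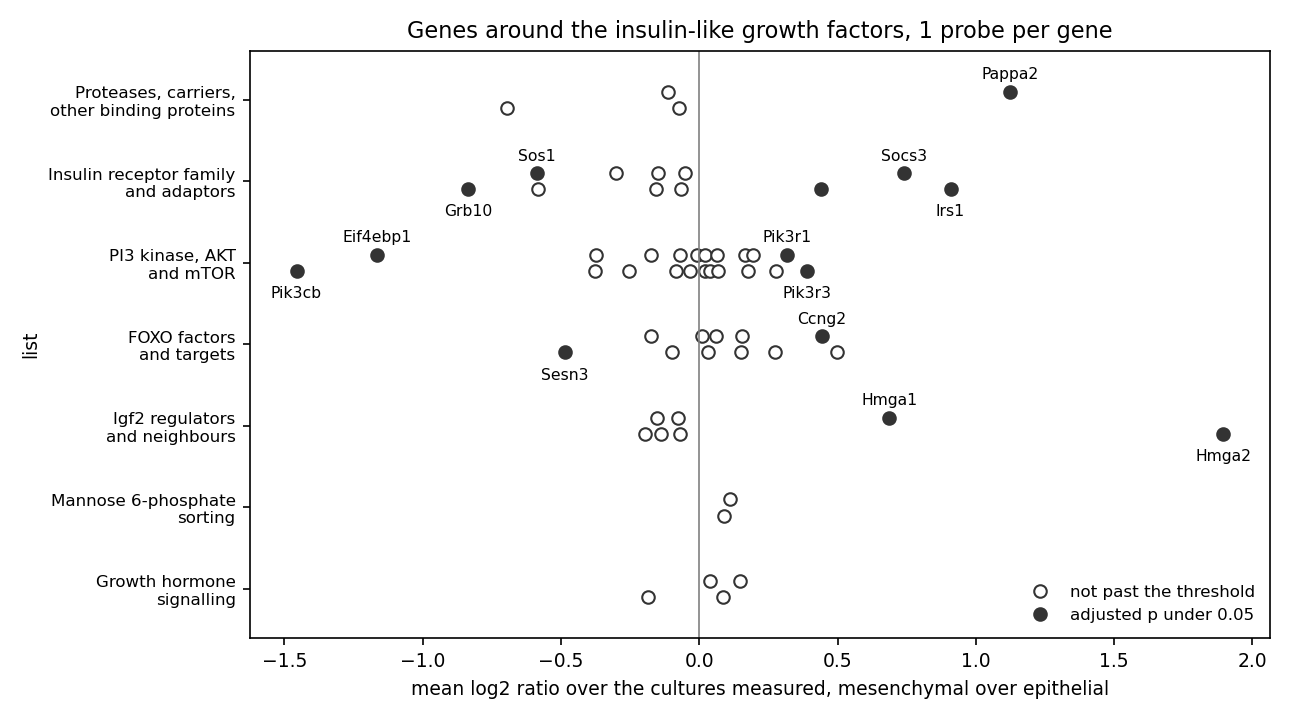
Mean log2 ratio of mesenchymal over epithelial RNA (x axis), over 2 cultures for Akt1, Gsk3b, Igfbpl1 and Plagl1 and over 3 for the others, for the 60 measured genes of 7 lists (y axis), filled where the adjusted p was under 0.05, with points of a list offset up and down only to keep them apart. Most points lie near 0, Hmga2 and Pappa2 lie farthest to the right, and Pik3cb and Eif4ebp1 farthest to the left.

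Among regulators of Igf2 and its chromosomal neighbours, 2 of 7 genes rose and none fell. Hmga2, a chromatin protein of the fetus known in the mouse to activate Igf2bp2, whose product binds Igf2 mRNA, had intensities of 49145, 53416 and 38811 in mesenchymal cells, against 9997, 15244 and 12993 in epithelial cells. The groups did not overlap, the log2 ratios were 2.30, 1.81 and 1.58, and the mean was 1.90 ± 0.37 (adjusted p = 0.00101), with the mesenchymal spot saturated on 2 arrays. Its relative Hmga1 rose by 0.69 ± 0.44 (adjusted p = 0.0465), and lost the call without culture 2 (0.79, adjusted p = 0.0523) or culture 3 (0.83, adjusted p = 0.0885), and over the arrays with mesenchymal RNA in Cy3 alone (0.22, adjusted p = 0.291).

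H19, the noncoding RNA that shares an imprinting control region with Igf2 and is expressed from the other parental allele, was singled out after its values were seen. Its brighter probe had intensities of 3826, 3790 and 5723 in mesenchymal cells, against 3435, 4554 and 6218 in epithelial cells. The groups overlapped, and the log2 ratio was -0.08 ± 0.21 (adjusted p = 0.749). Its dimmer probe, measured in cultures 1 and 2, had intensities of 3011 and 2432 in mesenchymal cells, against 900 and 948 in epithelial cells, a log2 ratio of 1.55 ± 0.27 (SD, n = 2 cultures; adjusted p = 0.00275). The probes of H19 thus disagreed, like those of Igf2. The remaining genes of the list were not called, Igf2bp1, Igf2bp3, Ctcf and Plagl1. None of 2 genes of mannose 6-phosphate sorting and none of 4 of growth hormone signalling was called by limma.

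Of 8085 other named genes measured in all cultures, the 5 whose log2 ratios lay nearest to those of Igf2 probe A_65_P06533 were Ackr3, Ank, Prl2c2, Pdgfrb and F3. The root mean square difference over 3 cultures was 0.59 for Ackr3, 0.67 for Ank, 0.82 for Prl2c2, 0.83 for Pdgfrb and 0.87 for F3. Ackr3, an atypical chemokine receptor, had log2 ratios of 2.61, 3.31 and 2.60, against 3.51, 3.37 and 3.08 for Igf2. Ank, a pyrophosphate transporter, had 3.12, 3.95 and 4.01. Igf2 and Pdgfrb were highest in culture 1, Ackr3 in culture 2, and Ank, Prl2c2 and F3 in culture 3. Prl2c2 belongs to a family of near-identical genes, which this probe may not separate.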

How the data were processed

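RNA of 3 cultures, each as mesenchymal and epithelial cells, was measured on 6 two-colour Agilent arrays. Per the file headers, the deposited intensities are the mean of each spot and the median of its local background from Agilent's Feature Extraction software, and its log10 ratios are of background-subtracted, lowess dye-normalised signals. Log10 ratios also make up the authors' deposited value table. By comparison with the scanner values each column is the mean of a culture's 2 arrays turned to mesenchymal over epithelial (correlation 1, slope 1), with medians of 0.00397, -0.0123 and -0.00379 and no further centring. Its direction rests, like every ratio here, on the dye orientation in the array names. The submitters' processing notes name limma, with no version.

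Intensities were corrected with normexp (offset 50) and normalised by loess in limma 3.58.1 (R 4.3.3). The 2 arrays of a culture were averaged as 1 replicate, outlier-marked spots were left out, and a culture needed both arrays. Printed intensities come from the same values after Aquantile scaling. Probes had to be well above background on 4 or more of the 6 arrays in either RNA, which removed 43, and at least 2 cultures were required, which removed 143. This left 20185 probes, 2476 of them on 2 cultures. The filter is weak, since 26.5% to 81.5% of negative controls also counted as well above background on an array. Ratios were tested against 0 with limma (lmFit, eBayes). Where every array was saturated for an RNA, no fold is given.

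Probes were aligned by feature number, and names came from gene IDs, symbols or synonyms of RefSeq (GRCm38.p6). M6pr, listed as a synonym of Igf2, is the current symbol of another gene and was not counted. Probe A_65_P16404, named Igfbp7 only in the differing annotation of 1 array and assigned by its gene ID to Polr2b, was not counted either, and its log2 ratio was 0.16 ± 0.13 (adjusted p = 0.323). No other column of per-sample values was present (0).

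All member probes were named, whatever their values. From each of 7 pathway lists up to 4 called genes with the largest absolute log2 ratio were named on their brightest probe, and 5 genes by likeness to Igf2. H19 was added after its values were seen. The members and lists were chosen with earlier results of these data known.

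The steps were tested on simulated data, 200 shifted among 20185 probes in this comparison. At an absolute log2 shift of 0.5, 84% of 50 were called, and at shifts of 1, 2 and 3, 100% of 50 each. Alternatives covered background correction, normalisation, filters, dye orientation, the variance model, the pairing by culture and leaving out each culture.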

Additional observations from a re-analysis of the deposited data

How the results depend on the processing

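The Igf2 probe A_65_P06533 and Igfbp2 kept their direction and their call in all 22 alternatives, with log2 ratios of 2.69 to 3.96 and of -1.21 to -0.92. The count of called probes of the axis, 6, was 2 without the replicate block that pairs the RNAs of a culture, Igf2 and Igfbp2, with Igfbp3 at an adjusted p of 0.0528, and 3 to 9 when 1 culture was left out. The count of pathway genes, 14, was 4 without the block, 35 over the arrays with epithelial RNA in Cy3, 29 over those with it in Cy5, 7 at an adjusted p under 0.01, and 6 to 26 with 1 culture left out. Of all probes, 2272 were called, against 256 without the block, 8211 and 6898 in the same dye orientations, 963 at 0.01, and 809 to 5875 with 1 culture left out. The probes with a dye effect, 8, ranged from 6 to 9 with 1 culture left out. Of the called probes, the sign turned for Igfbp3 (0.19) and Sesn3 (0.26) over the arrays with epithelial RNA in Cy5. Of those not called, it turned over the same arrays for Igf1r probe A_65_P07762 (0.11) and Igf1 probe A_65_P01506 (2.15), and over the arrays with epithelial RNA in Cy3 for Igf1r probe A_65_P17996 (0.22), Igf2 probe A_65_P02325 (0.06), Igfbp4 (0.0088) and the brighter H19 probe (0.48). Igf1 probe A_65_P01506 was also above 0 without culture 1 (0.42, in a range of -0.26 to 0.42 with 1 culture left out) and in 4 other alternatives (0.01 to 0.06), and Igf2 probe A_65_P02325 (0.05) and the H19 probe (0.02) were above 0 without culture 2. In 1 orientation alone a probe's dye effect adds to its ratio. Other causes were not tested. A block for slide or scan was not run, because each slide held 1 array and no scan date was used. Igfbp4 of the axis and the pathway genes Hmga2, Eif4ebp1 and Ptpn11 had no value once saturated spots were left out. This left 57 pathway genes with 12 called. With the alternative of 5 arrays, chosen after seeing the data, 4 probes of the axis, 14 pathway genes and 1778 of all probes were called. Signal over background limited no probe of the axis by the scanner's own measure, which many negative controls also passed.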
